A study of Mus musculus with 14 samples.

Results

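The genes described here encode the protein folding machinery of the endoplasmic reticulum (ER) and the regulators of the unfolded protein response (UPR). They were chosen by name, as the probe sets annotated to 36 listed symbols, with the probe set of highest mean kept for each gene. The list was drawn up with earlier results of these data known. Of the 36 genes, 34 had a probe set of their own among the 18820 genes measured. Ddit3 and Pdia4 were represented only by probe sets that the annotation also assigns to another gene, and no value is given for them. Proteins destined for the cell surface or for secretion enter the ER through the translocon, fold with the help of chaperones, lectins and disulfide isomerases, and leave in coated vesicles, while misfolded chains are pulled back into the cytosol and degraded. When folding lags behind synthesis, the membrane sensors IRE1 (Ern1 and its epithelial paralogue Ern2), ATF6 and PERK switch on the UPR, in which IRE1 splices the Xbp1 mRNA into the form that encodes an active transcription factor. Mucus and zymogen secreting cells of stomach and intestine are known for an extensive ER and for high use of this machinery.

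The study asked whether removal of Cdx2, a homeobox factor that keeps intestinal cells intestinal, converts adult intestinal stem cells (SCs) into gastric ones, and 14 samples of mouse cells from organoid cultures were each hybridised to 1 array. Of these, 7 arrays held sorted cells with high Lgr5-EGFP, a reporter of the Lgr5 stem cell gene: Cdx2null SI SCs (n = 2), control Sto SCs (n = 2) and control SI SCs (n = 3), with SI for the proximal small intestine and Sto for the pyloric glands of the stomach. The other 7 arrays held whole, unsorted organoids in Sto medium (Sto organoids n = 1, SI organoids n = 1) or in SI medium (Sto organoids n = 2, SI organoids n = 3). SI medium holds EGF, Noggin and R-spondin, and Sto medium adds Wnt3a, Fgf10 and gastrin. The labels read Cdx2null / Lgr5-EGFP for the Cdx2null group and Cdx2-/fl / Lgr5-EGFP for all other groups. The study's methods describe adult mice, males and females, of mixed C57Bl6j/CBA background. Mice of the Cdx2-/fl genotype carry 1 deleted and 1 floxed Cdx2 allele, and here also a CreERT2 knocked into Lgr5 with the EGFP. The controls too thus had only 1 functional Cdx2 allele. For the Cdx2null group the organoids had been exposed overnight to 4-hydroxytamoxifen and the controls had not. The sorted SCs are described as taken from clones cultured in Sto medium. The study's text calls the whole organoids on the arrays wild-type, which differs from their labels, so the genotype of these 7 samples and whether they were clonal are uncertain. The samples are not stated to come from separate animals, so p-values measure the spread between these samples, which may be technical.

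Cdx2 itself was at 8.41 and 4.88 on the log2 scale on the arrays labelled Cdx2null SI SCs, at 5.08 and 4.67 in control Sto SCs and at 9.04, 10.05 and 8.94 in control SI SCs. The array labelled Cdx2null SI SCs 1 thus had a Cdx2 signal just under that of the lowest control SI array. The Cdx2 probes include exons that the deletion leaves in place, which limits the signal as a check of the label. The same probes gave 4.88 on Cdx2null SI SCs 2, however, and the cause of the difference between these replicates was not tested. The neck and gland mucous, goblet and enterocyte marker lists given below were on Cdx2null SI SCs 1 near those of Cdx2null SI SCs 2 and control Sto SCs. Results of the Cdx2null comparisons are also given without the array labelled Cdx2null SI SCs 1. The array labelled SI organoids in SI medium 1 had Cdx2 at 5.52, against 9.92 and 9.67 on its 2 replicates. Its correlation with these replicates was 0.928 and 0.904, against 0.984 between them. Over the 3 arrays of this group the neck and gland mucous list ran from 4.81 to 11.37. The goblet list ran from 6.92 to 11.38 and the enterocyte list from 3.87 to 11.99. The label of this array was kept, and whether it is right was not tested. Sto organoids kept in SI medium had Cdx2 at 4.72 and 5.57. Lgr5 ran from 10.77 to 11.56 over the sorted SCs, and Sto organoids kept in SI medium had 4.20 and 4.32. The values of 1 array of control SI SCs (number 3) and of 1 array of SI organoids in SI medium (also number 3) had been exported differently, as the log2 of a linear signal with 1 decimal, and their upper quartiles were 7.50 and 7.57, where the other 12 arrays had 7.79 to 7.90. This matters for ER genes because their signal was high: 33 of the 34 lay above the median signal of all genes, and Derl3 alone lay below it. Signals of different probe sets are not comparable as amounts of RNA, so every comparison below is between arrays and within a gene.

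Averaged over the 34 genes, the level relative to each gene's own mean over the 14 arrays was 0.30 and 0.31 log2 units above it on the arrays labelled Cdx2null SI SCs and 0.57 and 0.47 above it in control Sto SCs, against 0.12, 0.18 and 0.41 units below it (-0.12, -0.18 and -0.41) in control SI SCs. In Sto medium the value was 0.26 in Sto organoids and -0.23 in SI organoids. In SI medium it was -0.12 and 0.16 in Sto organoids, against 0.14, -0.44 and -0.71 in SI organoids, with the 0.14 on the array labelled SI organoids in SI medium 1. All 4 arrays of Cdx2null and Sto SCs thus lay above all 3 arrays of control SI SCs, while the organoids in SI medium overlapped. After quantile normalisation, which forces the arrays to 1 distribution, the values were 0.22 to 0.26 for Cdx2null SI SCs, 0.45 to 0.50 for control Sto SCs and -0.24 to -0.12 for control SI SCs. Of the 34 genes, 21 had their highest group mean in control Sto SCs and 14 their lowest in SI organoids in SI medium, 10 in SI organoids in Sto medium and 9 in control SI SCs. Across all genes 12.1% had their highest group mean in control Sto SCs, and 13.4%, 18.2% and 17.3% their lowest in those 3 groups. After quantile normalisation the count for control Sto SCs was 22, and the lowest counts were 7 for SI organoids in SI medium, 15 for SI organoids in Sto medium and 6 for control SI SCs, so the order of the organoid groups turned.

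**Figure D1:**
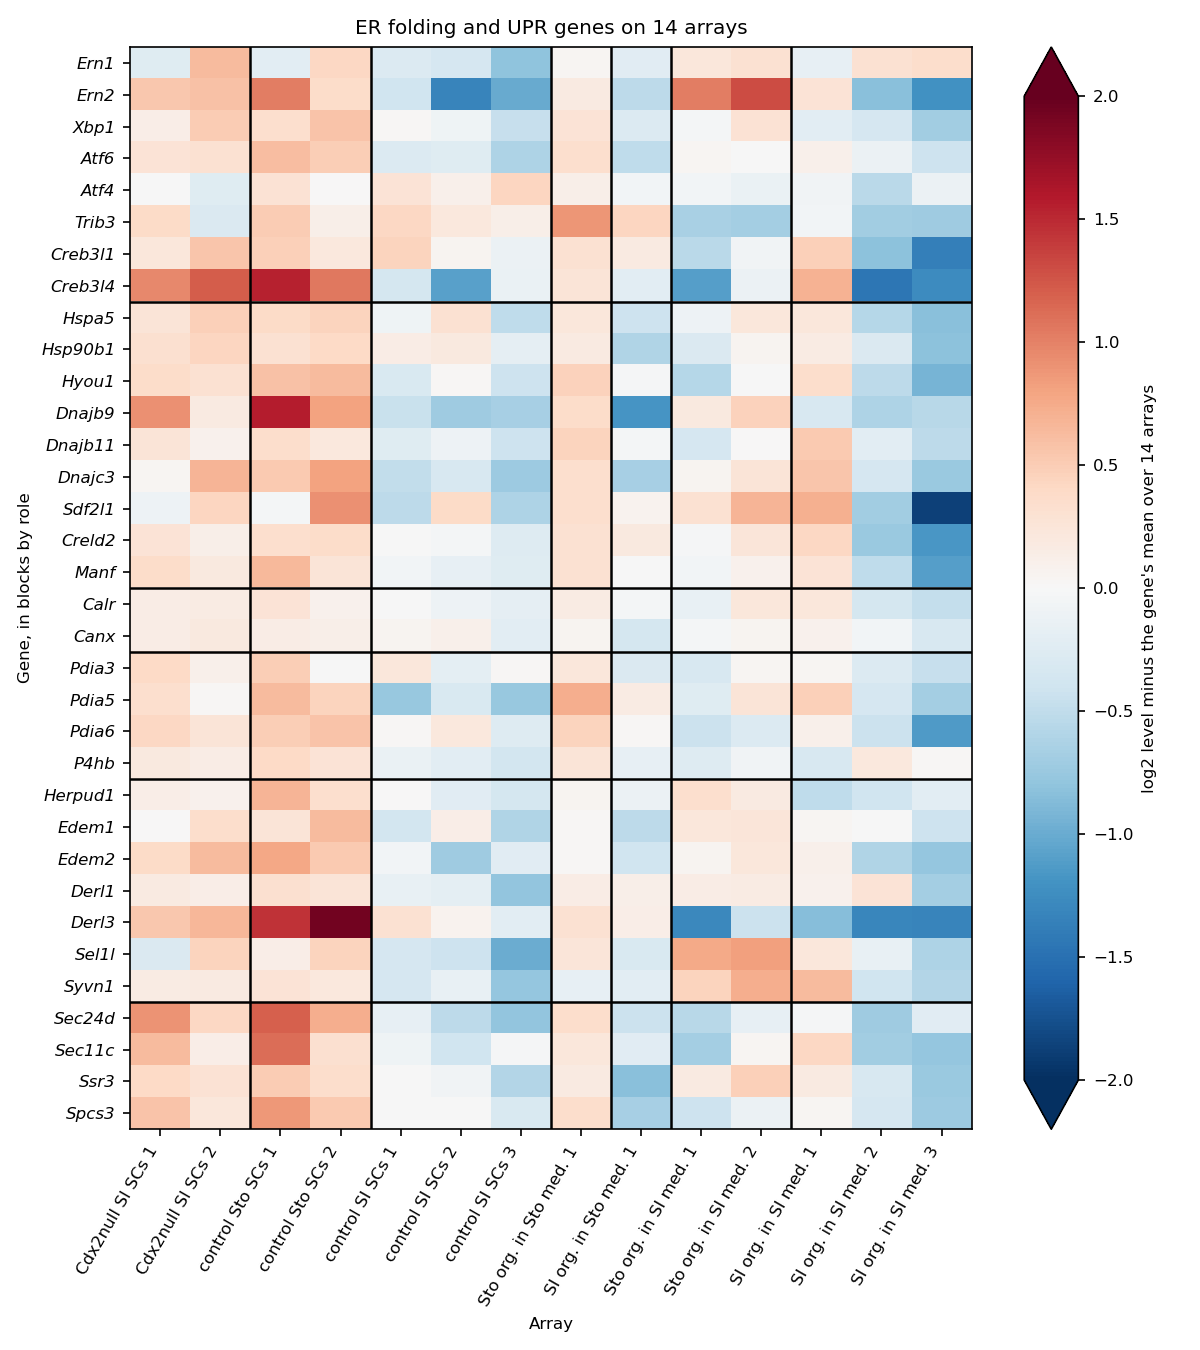
Heat map of 34 ER genes (rows, in blocks from top to bottom of sensors and transcription factors, Hsp70 and Hsp90 chaperones and cofactors, lectin chaperones, disulfide isomerases, ER-associated degradation, and translocation and export) on 14 arrays (columns, in 7 groups), coloured by the log2 level minus the gene's mean over the 14 arrays. The columns of control Sto SCs are mostly red, those of SI organoids in SI medium 2 and 3 mostly blue, and SI organoids in SI medium 1 differs in colour from its 2 replicates.

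**Figure D2:**
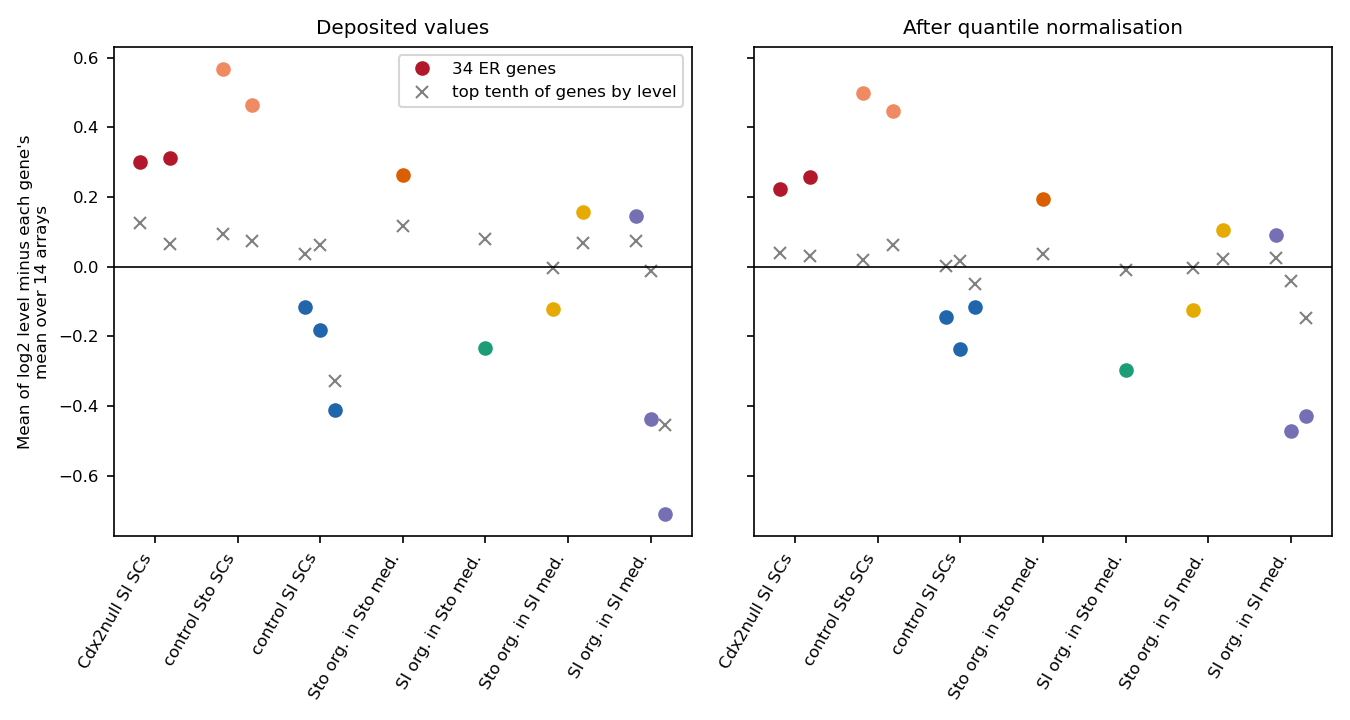
Mean over 34 ER genes of the log2 level minus each gene's mean over the 14 arrays, 1 coloured point per array, for the deposited values (left) and after quantile normalisation (right), with the same mean over the 1882 genes of highest signal as grey crosses. The points of Cdx2null SI SCs (0.30 and 0.31) and control Sto SCs (0.57 and 0.47) lie above those of control SI SCs in both panels, and the lowest crosses of the left panel, at -0.33 and -0.45, are those of the arrays numbered 3 and lie nearer to 0 in the right panel.

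The promoters of the genes were examined because many of them are known targets of the same UPR factors. ATF6 and XBP1 are known to act through the ER stress response element (ERSE, which reads CCAAT, any 9 bases and CCACG, and whose CCAAT part binds the factor NF-Y), through ERSE-II (ATTGG, any base and CCACG) and through the UPR element (UPRE, TGACGTGG). Exact matches were searched on both strands in the 250 bases before the RefSeq gene start. Of the 36 genes, 28 were in the promoter table of build GRCm38.p6, and Ern2, Atf6, Creb3l1, Hyou1, Manf, Derl1, Sec11c and Spcs3 were not. ERSE was found in 9 of the 28 (32.1%), namely Calr, Canx, Creld2, Derl3, Dnajc3, Hsp90b1, Hspa5, Pdia6 and Syvn1, and in 35 of all 27025 genes of the table (0.130%). Hsp90b1 held 2 matches, in opposite orientations. ERSE-II was found in Herpud1 only among the 28, and in 10 of all genes (0.0370%), and UPRE was found in Sec24d only, and in 0.603% of all genes. The C/EBP-ATF response element (CARE, TGATGNAA), through which ATF4 is known to act, matched in Herpud1 and in 3.91% of all genes, and no match of one element overlapped a match of another. A match is a string of letters, not a measured site. As many of the genes are known targets of these factors, the higher share of matches among them is no independent result. Shown are the stretches of 3 genes that rose in control Sto SCs below (Derl3, Dnajc3 and Sec24d), of the major ER chaperones Hspa5 and Hsp90b1, and of the ERSE-II gene Herpud1, read 5′ to 3′ on the gene's strand with the matches in capitals.
Derl3, chr10:75893212-75893290, plus strand: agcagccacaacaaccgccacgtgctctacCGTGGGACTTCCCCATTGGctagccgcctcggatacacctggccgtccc
Dnajc3, chr14:118937797-118937875, plus strand: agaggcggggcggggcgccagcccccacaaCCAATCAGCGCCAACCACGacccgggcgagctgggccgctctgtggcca
Sec24d, chr3:123267440-123267495, plus strand: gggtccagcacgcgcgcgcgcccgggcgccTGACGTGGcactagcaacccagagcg
Hspa5, chr2:34771995-34772073, plus strand: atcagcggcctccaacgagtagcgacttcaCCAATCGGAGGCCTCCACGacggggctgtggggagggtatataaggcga
Hsp90b1, chr10:86705503-86705686, minus strand: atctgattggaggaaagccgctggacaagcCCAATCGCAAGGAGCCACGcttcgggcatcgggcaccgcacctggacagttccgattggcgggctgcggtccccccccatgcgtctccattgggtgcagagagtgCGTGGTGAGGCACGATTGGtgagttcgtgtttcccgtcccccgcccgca
Herpud1, chr8:94386347-94386417, plus strand: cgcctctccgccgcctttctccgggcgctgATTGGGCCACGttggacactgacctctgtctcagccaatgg
In Derl3 the match lies in the reverse orientation 156 to 138 bases before the start, in Dnajc3 at 105 to 87 bases, and in Hspa5, the closest ERSE of these to its start, at 65 to 47 bases.

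**Figure D3:**
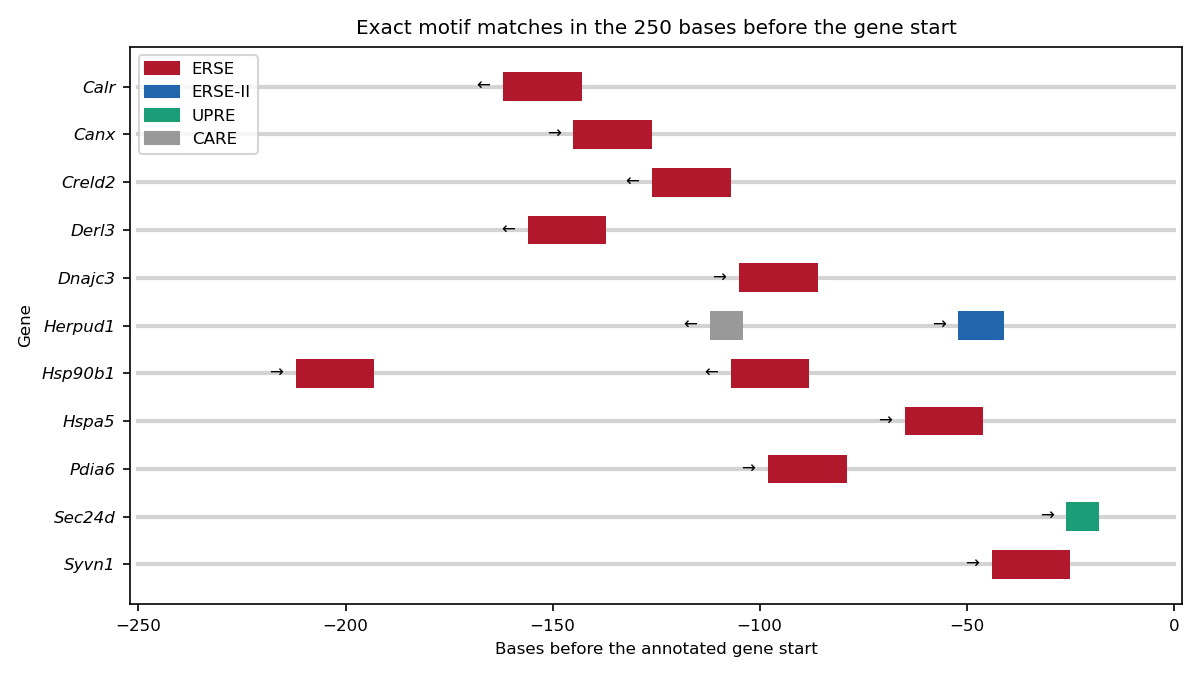
Positions of exact motif matches in the 250 bases before the annotated start of 11 ER genes, with distance from the start on the x axis, boxes for ERSE (red), ERSE-II (blue), UPRE (green) and CARE (grey), and arrows for their orientation. Boxes lie between 212 and 19 bases before the start, and Hsp90b1 holds 2 ERSE boxes.

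Control Sto SCs were compared with control SI SCs to find how stem cells of the 2 organs differ, and 7 of the 34 ER genes rose at least 2-fold in Sto SCs while none fell. The 7 spanned several steps of the secretory route: the sensor Ern2 and the membrane-bound transcription factor Creb3l4, the BiP cochaperones Dnajb9 and Dnajc3, the disulfide isomerase Pdia5, the degradation factor Derl3, and Sec24d, the cargo-selecting subunit of the vesicle coat COPII. A gene was called where the adjusted p of limma was under 0.05 and the fold was at least 2, and by that rule 1.94% of all 18820 genes were called higher and 0.914% lower. With the adjusted p alone 9 of the 34 passed, all higher, beside 2.33% of all genes higher and 1.02% lower. The difference was above 0 for 33 of the 34 genes, against 55.4% of all genes and 64.0% of the 1882 genes of highest signal. Its median was 0.67 log2 units, against 0.03 over all genes and 0.12 over those 1882 genes. In 29 of the 34 genes both Sto arrays lay above all 3 SI arrays, as they did for 19.9% of all genes. These are counts over a list chosen by name with earlier results of these data known, so they are not those of a neutral list. Whether fewer cells with a large ER or less ER mRNA per cell underlies a bulk difference cannot be told apart.

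Among the sensors and transcription factors, Ern2 was at 10.14 and 10.19 on the arrays labelled Cdx2null SI SCs and at 10.63 and 9.97 in control Sto SCs, against 9.20, 8.28 and 8.60 in control SI SCs. Ern2 is the IRE1 paralogue of mucus-producing epithelia, and all 4 arrays of Cdx2null and Sto SCs lay above the 3 of control SI SCs. It rose 3.04-fold in control Sto SCs, by 1.60 (SE 0.30, adjusted p = 0.0416) log2 units. Creb3l4 was at 9.93 and 10.17 on the arrays labelled Cdx2null SI SCs and at 10.51 and 10.02 in control Sto SCs, against 8.62, 7.88 and 8.83 in control SI SCs. Creb3l4 encodes an ER membrane transcription factor of the CREB3 family, and again the arrays of Cdx2null and Sto SCs all lay above those of control SI SCs. It rose 3.53-fold in control Sto SCs, by 1.82 (SE 0.30, adjusted p = 0.0283). Atf6 was at 9.53 and 9.55 on the arrays labelled Cdx2null SI SCs and at 9.88 and 9.76 in control Sto SCs, against 8.98, 9.02 and 8.65 in control SI SCs. Atf6, the sensor that is cleaved in the Golgi to release its transcription factor, passed the adjusted p in control Sto SCs but not the 2-fold minimum, with a difference of 0.93 (SE 0.16, adjusted p = 0.0314).

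The other regulators did not pass the test in either comparison with control SI SCs. Xbp1 was at 11.74 and 12.12 on the arrays labelled Cdx2null SI SCs and at 11.95 and 12.19 in control Sto SCs, against 11.63, 11.52 and 11.14 in control SI SCs. For Xbp1, the substrate of IRE1, the arrays of Cdx2null and Sto SCs all lay above those of control SI SCs, and the differences were 0.50 (SE 0.20, adjusted p = 0.409) for Cdx2null and 0.64 (SE 0.20, adjusted p = 0.177) for Sto SCs. The probe set gives the gene's total signal, and the spliced form was not analysed here. Ern1 was at 7.71 and 8.58 on the arrays labelled Cdx2null SI SCs and at 7.73 and 8.37 in control Sto SCs, against 7.67, 7.61 and 7.15 in control SI SCs. The widely expressed sensor Ern1 differed by 0.67 (SE 0.32, adjusted p = 0.513) for Cdx2null and 0.57 (SE 0.32, adjusted p = 0.493) for Sto SCs. Atf4 was at 7.94 and 7.71 on the arrays labelled Cdx2null SI SCs and at 8.23 and 7.96 in control Sto SCs, against 8.22, 8.05 and 8.38 in control SI SCs. Atf4, the transcription factor whose translation rises when PERK is active, was the only one of the 34 genes with both Cdx2null arrays below all control SI arrays, with a difference of -0.39 (SE 0.17, adjusted p = 0.453). Trib3 was at 6.74 and 6.08 on the arrays labelled Cdx2null SI SCs and at 6.87 and 6.47 in control Sto SCs, against 6.78, 6.58 and 6.47 in control SI SCs. The arrays of Trib3, a pseudokinase gene and ATF4 target, overlapped between all 3 groups. Creb3l1, a relative of Creb3l4, differed by 0.26 (SE 0.21, adjusted p = 0.755) for Cdx2null and 0.21 (SE 0.21, adjusted p = 0.755) for Sto SCs.

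The chaperone genes with the larger differences were cochaperones of BiP rather than BiP itself. Dnajb9 was at 10.16 and 9.43 on the arrays labelled Cdx2null SI SCs and at 10.83 and 10.06 in control Sto SCs, against 8.80, 8.55 and 8.59 in control SI SCs. Dnajb9 binds misfolded chains for BiP, and its lowest value in Cdx2null or Sto SCs lay above its highest in control SI SCs. It rose 3.47-fold in control Sto SCs, by 1.79 (SE 0.30, adjusted p = 0.0273). Dnajc3 was at 9.67 and 10.32 on the arrays labelled Cdx2null SI SCs and at 10.16 and 10.44 in control Sto SCs, against 9.14, 9.31 and 8.91 in control SI SCs. The cochaperone Dnajc3, whose ERSE is shown above, rose 2.26-fold in control Sto SCs, by 1.18 (SE 0.23, adjusted p = 0.0465). Hspa5 was at 11.74 and 11.96 on the arrays labelled Cdx2null SI SCs and at 11.87 and 11.93 in control Sto SCs, against 11.41, 11.80 and 10.98 in control SI SCs. Hspa5 encodes BiP, the central Hsp70 of the ER, and here control SI SCs 2 lay between the 2 Cdx2null arrays. Its differences were 0.46 (SE 0.24, adjusted p = 0.561) for Cdx2null and 0.50 (SE 0.24, adjusted p = 0.402) for Sto SCs. Hsp90b1 was at 11.61 and 11.72 on the arrays labelled Cdx2null SI SCs and at 11.60 and 11.68 in control Sto SCs, against 11.44, 11.49 and 11.11 in control SI SCs. For Hsp90b1, the Hsp90 of the ER, the differences were 0.32 (SE 0.16, adjusted p = 0.542) and 0.30 (SE 0.16, adjusted p = 0.472). The nucleotide exchange factor Hyou1 passed the adjusted p in Sto SCs at 0.84 (SE 0.17, adjusted p = 0.0475), below the 2-fold minimum. Of the remaining cofactors, Dnajb11, Sdf2l1, Creld2 and Manf differed by 0.30 to 0.43 for Cdx2null and by 0.45 to 0.69 for Sto SCs, and none passed the test.

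The lectin chaperones Calr and Canx, which hold glycoproteins during folding, had the lowest median difference of any role, at 0.25 and 0.19 for Cdx2null and 0.27 and 0.15 for Sto SCs, none past the test. Pdia5 was at 9.21 and 8.89 on the arrays labelled Cdx2null SI SCs and at 9.50 and 9.31 in control Sto SCs, against 8.12, 8.56 and 8.11 in control SI SCs. Among the disulfide isomerases Pdia5 alone was called, and rose 2.21-fold in control Sto SCs, by 1.14 (SE 0.20, adjusted p = 0.0314). Pdia3, Pdia6 and P4hb differed by 0.22 to 0.57 in Sto SCs and were not called. Derl3 was at 6.37 and 6.50 on the arrays labelled Cdx2null SI SCs and at 7.27 and 7.77 in control Sto SCs, against 6.13, 5.90 and 5.62 in control SI SCs. Derl3, a subunit of the channel through which misfolded proteins leave the ER, rose 3.11-fold in control Sto SCs, by 1.64 (SE 0.21, adjusted p = 0.0119), the smallest adjusted p of the 34 genes in this comparison. The other 6 degradation genes, Herpud1, Edem1, Edem2, Derl1, Sel1l and Syvn1, differed by 0.66 to 0.98 in Sto SCs with none called. Sec24d was at 9.82 and 9.33 on the arrays labelled Cdx2null SI SCs and at 10.11 and 9.64 in control Sto SCs, against 8.76, 8.39 and 8.13 in control SI SCs. Sec24d rose 2.74-fold in control Sto SCs, by 1.45 (SE 0.26, adjusted p = 0.0343). The signal peptidase subunits Sec11c and Spcs3 and the translocon-associated Ssr3 differed by 0.89, 0.80 and 0.66 in Sto SCs and were not called.

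**Figure D4:**
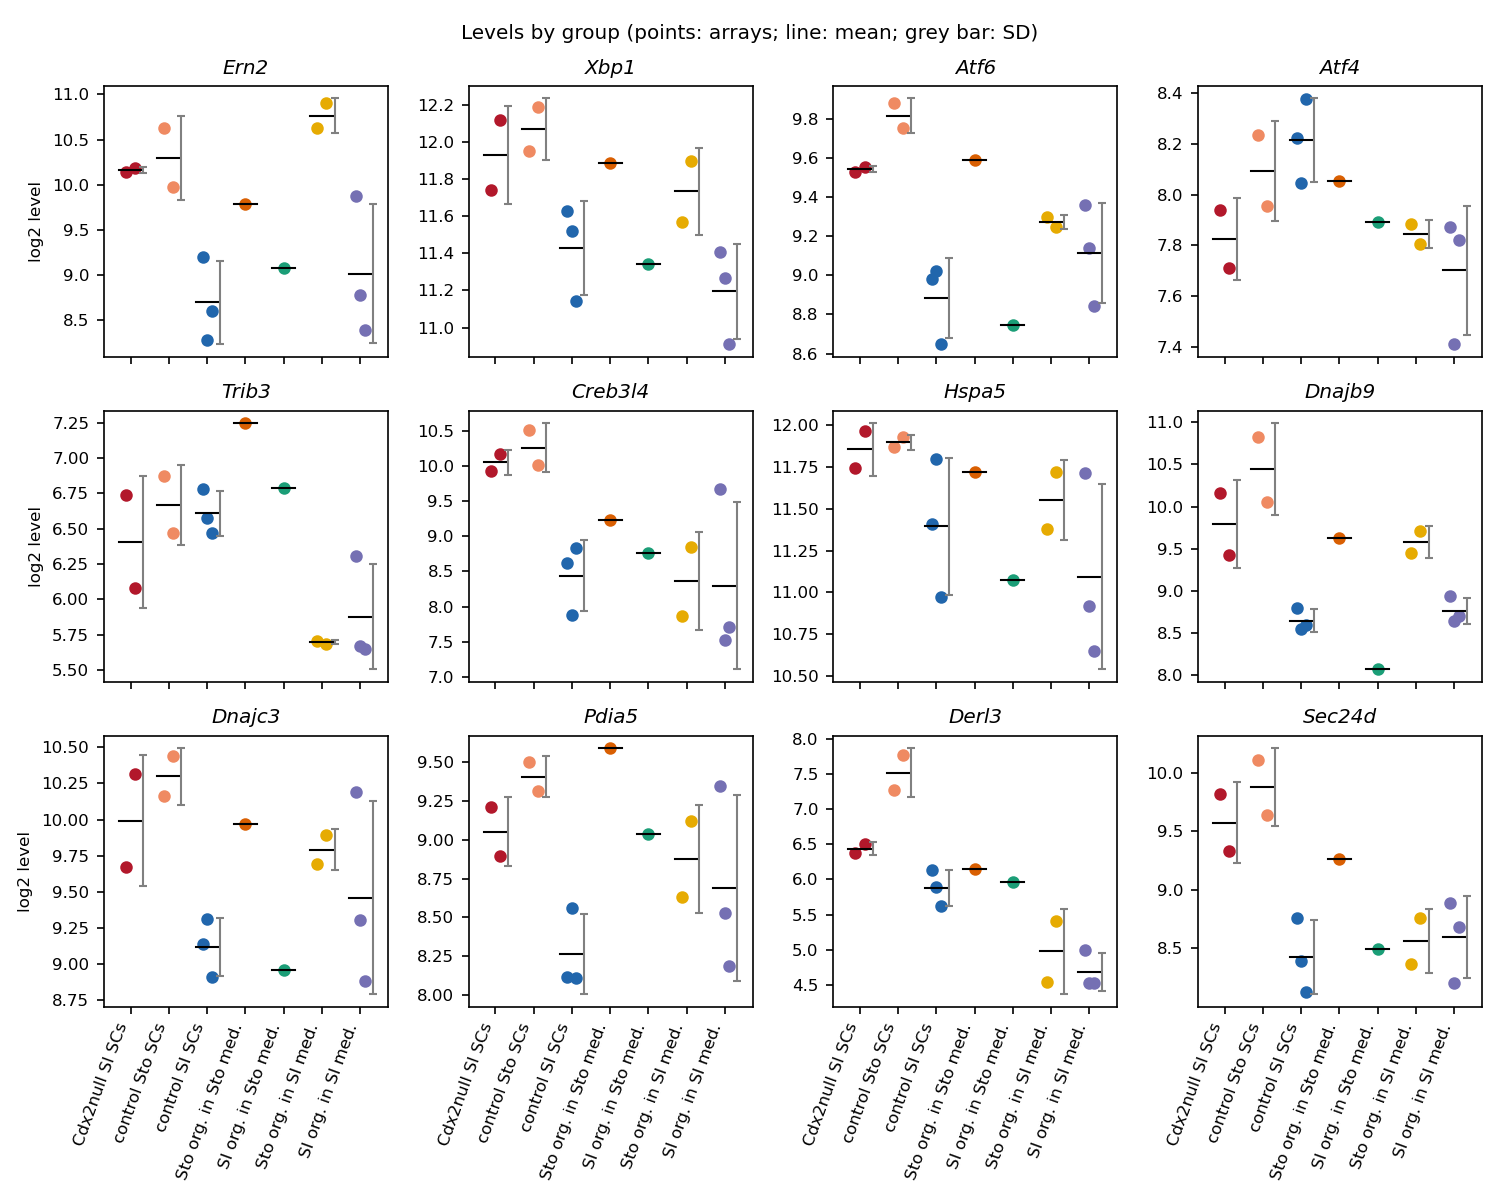
log2 levels of 12 ER genes in 7 groups, 1 point per array, with a black line at the group mean and a grey bar of 1 SD where a group had 2 or 3 arrays; each panel has its own y axis. In Ern2, Creb3l4, Dnajb9, Dnajc3, Pdia5, Derl3 and Sec24d all points of control Sto SCs lie above all points of control SI SCs, while Atf4 and Trib3 overlap.

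How many of these calls are made depends on single arrays. Without control SI SCs 3, which was exported differently, 2 of the 7 calls were made, beside 0.946% of all genes called higher. These were Creb3l4 at 2.01 (adjusted p = 0.0483) and Derl3 at 1.51 (adjusted p = 0.0377). Dnajb9 and Sec24d were at 1.76 and 1.31 (adjusted p = 0.0904 for each). Without either control Sto SC array 1 call was made, and the removal of control SI SCs 1 left 2 of the 7, and that of control SI SCs 2 left 3 (Creb3l4, Pdia5 and Derl3) and added Atf6. For the removal of a control Sto SC array, of control SI SCs 1 or of control SI SCs 2, no share of all genes is given. A loss of these calls can therefore not be told apart from a general loss of calls with fewer arrays. After quantile normalisation 6 of the 7 were called, without Creb3l4, beside 1.98% of all genes called higher. The count of genes whose arrays did not overlap was 29 without control SI SCs 3 (23.3% of all genes), and 26 after quantile normalisation (19.3%).

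The arrays labelled Cdx2null SI SCs were compared with control SI SCs to see what removal of Cdx2 changes, and none of the 34 ER genes was called by limma in either direction, where 0.93% of all genes were called higher and 0.595% lower. The adjusted p alone was passed by none of the 34, against 0.983% of all genes higher and 0.611% lower. At an unadjusted p under 0.05 there were 18 (52.9%, against 11.6% of all genes), and the methods' t-test with the 2-fold minimum gave 4 at an unadjusted p under 0.05 and 0 after Benjamini-Hochberg adjustment. The difference was above 0 for 32 of the 34 genes, all but Atf4 and Trib3, against 54.4% of all genes and 69.1% of the 1882 genes of highest signal. Its median was 0.50, against 0.03 over all genes and 0.14 over those 1882 genes. In 27 of the 34 both Cdx2null arrays lay above all 3 control arrays, as in 15.4% of all genes, and in Atf4 both lay below, as in 9.52%. The largest differences were those of Creb3l4, 1.61 (SE 0.30, adjusted p = 0.0615), Ern2, 1.47 (SE 0.30, adjusted p = 0.0819), Sec24d, 1.15 (SE 0.26, adjusted p = 0.105), and Dnajb9, 1.15 (SE 0.30, adjusted p = 0.155). Without control SI SCs 3 the median was 0.37 and the count of genes above was again 27 (17.8% of all genes), and after quantile normalisation they were 0.38 and 24 (12.7%). Without the array labelled Cdx2null SI SCs 1 no gene was called, the median was 0.53, and the remaining array lay above all controls in 31 of the 34, as in 28.1% of all genes. Single genes were called under other settings, given in the closing section.

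The comparisons of Cdx2null and of Sto SCs share the control SI arrays, so the likeness of their values is no independent result. Cdx2null SI SCs and control Sto SCs were therefore set against each other directly. None of the 34 genes was called by limma, where 0 of 18820 genes were called in either direction, and 1 (2.94%, against 1.52% of all genes) was under an unadjusted p of 0.05, with 0 by the methods' t-test. That gene was Derl3, at -1.08 (SE 0.24, adjusted p = 1), with Cdx2null SI SCs lower. The difference was below 0 for 29 of the 34, against 9929 of all 18820 genes and 834 of the 1882 genes of highest signal. Its median was -0.19 against -0.01 over all genes. In 11 both Cdx2null arrays lay below both Sto arrays, as in 13.5% of all genes, while none had both above, as 10.2% of all genes did. Without the array labelled Cdx2null SI SCs 1, the remaining array lay below both Sto arrays in 19 (38.3% of all genes) and above both in 5 (25.9%), with a median of -0.15. The 95% interval of the difference ran from -0.92 to 0.65 for Ern2 and from -1.41 to 0.12 for Dnajb9, so a call that was missed here does not show that the 2 groups were alike.

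**Figure D5:**
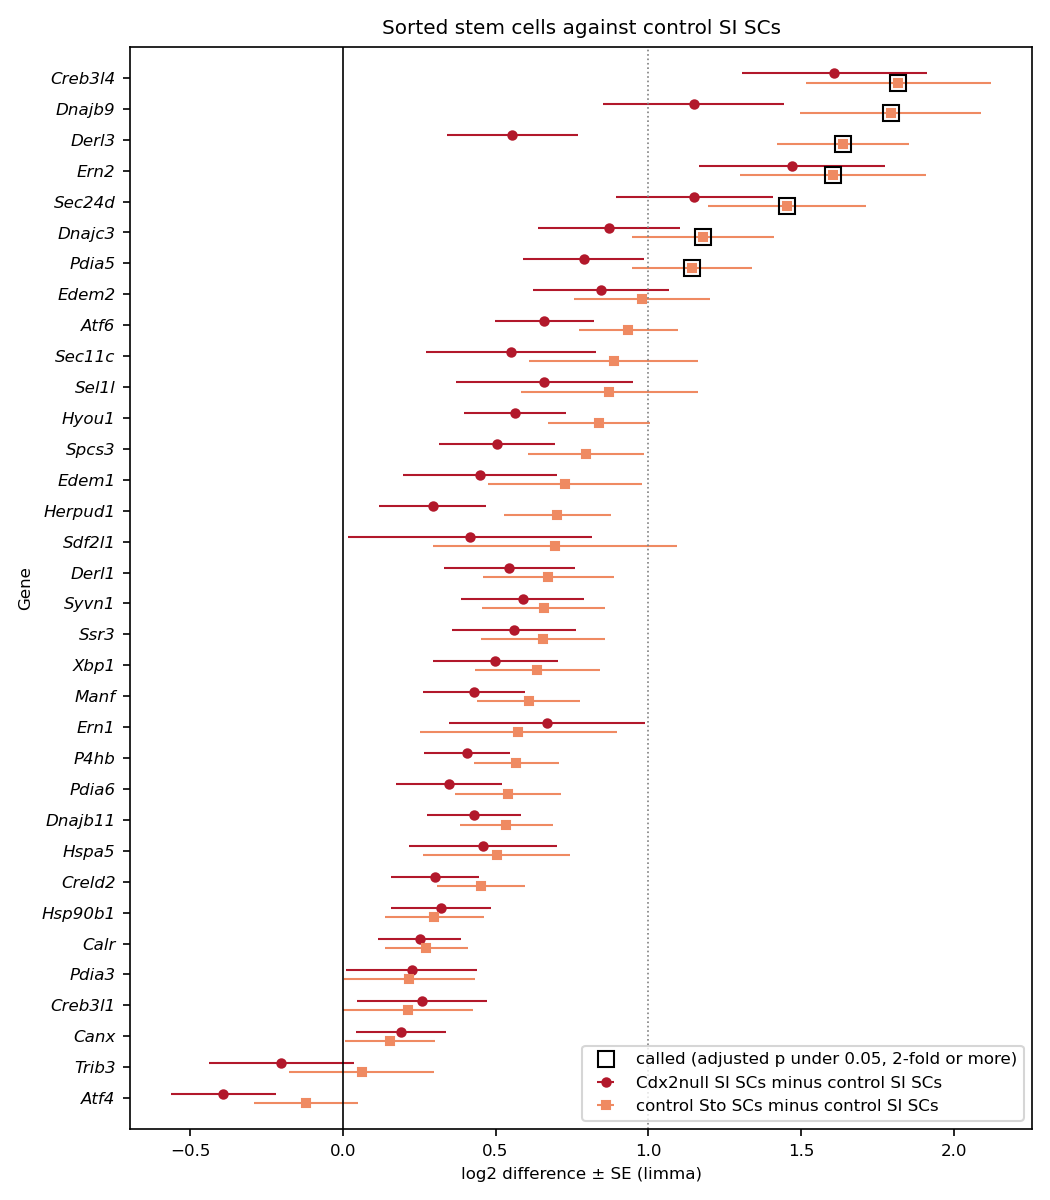
log2 differences of 34 ER genes with their SE from limma, for Cdx2null SI SCs minus control SI SCs (red circles) and control Sto SCs minus control SI SCs (orange squares), ordered by the Sto difference, with called genes boxed and a dotted line at 2-fold. Nearly all points lie right of 0, the 7 boxed genes are at the top, and Atf4 and Trib3 are at the bottom; both sets of points share the 3 control arrays.

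Other parts of the secretory route, from lists of genes that are not among the 36, gave the following counts. Over all genes 0.93% were called higher and 54.4% were above 0 for Cdx2null SI SCs, and 1.94% and 55.4% for control Sto SCs. Of the 1882 genes of highest signal 69.1% and 64.0% were above 0. Of 32 genes of COPII coats and ER export, 2 rose in Cdx2null SI SCs and the same 2 in control Sto SCs, the KDEL receptor Kdelr3 (2.47-fold and 3.77-fold) and the cargo receptor Tmed3 (2.22-fold and 3.76-fold), and 31 of 32 differences were above 0 in each. Of 32 other ER chaperones and redox enzymes, Hspa13 (2.25-fold) and the sulfhydryl oxidase Qsox1 (2.80-fold) rose in Cdx2null SI SCs, and in control Sto SCs Hspa13 (2.68-fold), Qsox1 (3.66-fold), the disulfide-forming oxidase Ero1b (3.91-fold) and Fkbp9 (2.26-fold). Of 25 other degradation genes none was called in Cdx2null SI SCs and Os9 and Selenos rose in control Sto SCs, 2.81-fold and 2.43-fold. None of 32 genes of the translocon, signal peptidase and oligosaccharyltransferase and none of 13 of the glycan folding cycle was called in either comparison, with medians of 0.36 and 0.46 for Cdx2null and 0.51 and 0.64 for Sto SCs. Of 21 targets of ATF4 and the integrated stress response, the median was 0.02 for Cdx2null, with none called, and 0.19 for Sto SCs, with Wars called (2.14-fold). Of 15 cytosolic heat shock genes none was called and the medians were 0.05 and 0.00. Among 9 further genes of ER stress sensors, their proteases and partner factors only Creb3l2 was called, 2.84-fold higher in control Sto SCs.

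Of 9 transcription factors and trafficking genes of secretory cells, 3 rose both in Cdx2null SI SCs and in control Sto SCs. Of all genes 0.93% and 1.94% were called higher. None of the 9 was called lower, but 3 of the 9 differences were below 0 in each comparison, down to -1.46 and -1.61. Gfi1 and Neurog3 lay under the array median on every sorted SC array, and Atoh1 on every Cdx2null and Sto SC array. Bhlha15, known for scaling up the secretory apparatus of zymogen cells, was at 7.83 and 6.93 on the arrays labelled Cdx2null SI SCs and 8.72 and 7.88 in control Sto SCs, against 5.20, 5.34 and 5.13 in control SI SCs. It rose 4.46-fold (adjusted p = 0.0281) in Cdx2null SI SCs and 8.44-fold (adjusted p = 0.00602) in control Sto SCs. Spdef, a factor of mucous cell maturation, rose 2.46-fold and 2.75-fold, and Rab3d, a small GTPase of secretory granules, 2.30-fold and 2.92-fold, in the same order. In organoids in SI medium Bhlha15 ran the other way, at 5.30 and 4.61 in Sto against 6.10, 6.14 and 6.96 in SI organoids. In Sto medium it was at 7.38 on the Sto and 5.39 on the SI organoid array. Its origin difference in sorted SCs exceeded that in organoids in SI medium by 4.52 log2 units (SE 0.53, limma adjusted p = 0.00936). Bhlha15 is also in the chief cell list below and Spdef in the goblet list. The mean log2 level of the neck and gland mucous list (Muc6, Tff2, Bpifb1 and Aqp5) was 11.5 to 12.1 on the arrays labelled Cdx2null SI SCs and 12.1 to 12.2 in control Sto SCs, against 8.35 to 8.65 in control SI SCs, and that of the chief cell list (Cblif, Pgc, Bhlha15 and Gpx3) was 7.15 to 8.58 and 8.26 to 8.56, against 5.51 to 6.11. The mean of the goblet list of 7 genes ran the other way, 6.83 to 6.84 and 6.66 to 6.87 against 8.51 to 8.75, as did the 6 enterocyte genes, 3.65 to 3.80 and 3.76 to 3.77 against 5.89 to 7.03. Within the goblet list Spdef and Agr2, an ER disulfide isomerase of mucous cells, went against the mean. Spdef rose in both comparisons, and Agr2, which was not called, was at 12.50 and 12.43 on the arrays labelled Cdx2null SI SCs and at 12.65 and 12.40 in control Sto SCs, against 12.17, 11.74 and 12.29 in control SI SCs. The 5 Paneth cell genes were at 7.67 to 8.06 and 5.47 to 8.07, against 8.84 to 9.63. Of the goblet markers Tff3, Clca1 and Zg16 lay under the array median on every Cdx2null and Sto SC array. Of the chief markers Cblif and Bhlha15 did so on every control SI SC array, while Gpx3 did so on every sorted SC array. Among single markers, Tff2, Bpifb1 and Cblif rose in both comparisons with control SI SCs. Tff3, Alpi, Fabp2, Apoa1, Sis, the Paneth markers Defa24 and Ang4 and the stem cell marker Smoc2 fell in both. In control Sto SCs alone Muc6 rose, and Zg16, Spink4 and Olfm4 fell. The part of these cells in the ER result was not tested.

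The genes that hold an ERSE or ERSE-II had no larger median difference than those that do not. Over the 10 measured members with a match the median difference was 0.33 for Cdx2null and 0.52 for Sto SCs, and over the 16 with a promoter window and neither element it was 0.53 and 0.67. All 10 members with a match had differences above 0 in both comparisons. A further 16 measured genes outside the list held an exact ERSE or ERSE-II, with a median of 0.16 for Cdx2null and 0.13 for Sto SCs, and among them was Ero1b, 3.91-fold higher in control Sto SCs. These are descriptions over few genes, and no test was made of them.

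In whole organoids the same genes were compared by origin. The study also uses SI medium to let stomach organoids differentiate, so in SI medium origin and state of differentiation cannot be told apart. There the mean of the stem cell list (Lgr5, Olfm4, Ascl2 and Smoc2) was 4.28 in Sto and 9.02 in SI organoids. In SI medium none of the 34 was called by limma between Sto and SI organoids, where 0.526% of all genes were called higher and 0.887% lower, 4 (11.8%, against 16.5% of all genes) were under an unadjusted p of 0.05 and the methods' t-test gave 0. The difference was above 0 for 30 of the 34, against 55.6% of all genes and 61.5% of the 1882 genes of highest signal. Its median was 0.25 against 0.04 over all genes. In 6 of the 34 (Ern2, Xbp1, Dnajb9, Herpud1, Edem1 and Sel1l) both Sto arrays lay above all 3 SI arrays, as in 20.7% of all genes. Ern2 was at 10.63 and 10.90 in Sto organoids, against 9.87, 8.77 and 8.39 in SI organoids, a difference of 1.75 (SE 0.47, adjusted p = 0.171). Dnajb9 was at 9.45 and 9.72, against 8.94, 8.65 and 8.70, a difference of 0.82 (SE 0.18, adjusted p = 0.12). These results turn on the array labelled SI organoids in SI medium 1, which is the first of the 3 SI values and lay nearest to the Sto arrays for Ern2. Without it 5 genes rose in Sto organoids, Ern2, Sdf2l1, Creld2, Sel1l and Syvn1 (7.57% of all genes were then called higher), the median was 0.45, and both Sto arrays lay above both SI arrays in 25 of the 34, as in 34.5% of all genes. Without it and after quantile normalisation 2 rose, Ern2 and Sdf2l1, where 6.25% of all genes were called higher. Without SI organoids in SI medium 3, the array exported differently, no gene was called, the median was 0.07, and 6 of the 34 lay above, as in 24.1% of all genes.

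In Sto medium, where each origin had 1 array and this pair was not tested, all 34 ER genes were higher in the Sto than in the SI organoid array, against 52.1% of all genes and 50.5% of the 1882 genes of highest signal. The median difference was 0.46, against 0.01 over all genes, and it was 0.44 with all 34 above 0 after quantile normalisation. At least 2-fold higher were Dnajb9 (9.62 in Sto and 8.07 in SI organoids), Ssr3 (10.8 in Sto and 9.82 in SI), Dnajc3 (9.97 in Sto and 8.96 in SI) and Spcs3 (10.1 in Sto and 9.07 in SI), 4 of 34 beside 3.26% of all genes, and none was 2-fold lower, beside 3.29%. The difference has no replicate check. In the same pair the goblet list was at 6.95 in Sto and 10.8 in SI organoids and the neck and gland mucous list at 11.5 and 7.64.

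Of the other genes, Xbp1 was at 11.89 in Sto organoids and 11.34 in SI organoids in Sto medium, and 11.57 and 11.90 in Sto organoids against 11.41, 11.27 and 10.91 in SI organoids in SI medium. Hspa5 was at 11.72 in Sto organoids and 11.07 in SI organoids in Sto medium, and 11.38 and 11.72 in Sto organoids against 11.71, 10.92 and 10.65 in SI organoids in SI medium, and Hsp90b1 at 11.47 in Sto organoids and 10.69 in SI organoids in Sto medium, and 11.01 and 11.35 in Sto organoids against 11.45, 11.01 and 10.47 in SI organoids in SI medium. For both chaperones the array labelled SI organoids in SI medium 1, the first of its 3 values, was the highest of the 3. Creb3l4 was at 9.22 in Sto organoids and 8.76 in SI organoids in Sto medium, and 7.87 and 8.85 in Sto organoids against 9.67, 7.52 and 7.71 in SI organoids in SI medium. The arrays of Creb3l4 overlapped between origins in SI medium, where the difference was 0.06 (SE 0.75, adjusted p = 0.98). Sec24d was at 9.27 in Sto organoids and 8.49 in SI organoids in Sto medium, and 8.37 and 8.76 in Sto organoids against 8.89, 8.21 and 8.69 in SI organoids in SI medium. Dnajc3 was at 9.97 in Sto organoids and 8.96 in SI organoids in Sto medium, and 9.69 and 9.89 in Sto organoids against 10.19, 9.30 and 8.88 in SI organoids in SI medium, and Pdia5 at 9.59 in Sto organoids and 9.04 in SI organoids in Sto medium, and 8.63 and 9.12 in Sto organoids against 9.35, 8.53 and 8.18 in SI organoids in SI medium. The sensor genes Ern1 and Atf6 overlapped between origins in SI medium. Ern1 was at 7.98 in Sto organoids and 7.72 in SI organoids in Sto medium, and 8.17 and 8.25 in Sto organoids against 7.79, 8.26 and 8.31 in SI organoids in SI medium. Atf6 was at 9.59 in Sto organoids and 8.74 in SI organoids in Sto medium, and 9.30 and 9.25 in Sto organoids against 9.36, 9.14 and 8.84 in SI organoids in SI medium. Whether the origin difference itself differed between sorted SCs and organoids in SI medium was tested as an interaction, and none of the 34 genes was called by limma, where 0.478% of all genes were called higher and 0.367% lower, with 5 of 34, against 1886 of 18820 genes, under an unadjusted p of 0.05 and 2 by the methods' t-test unadjusted (0 after adjustment). The median was 0.30, and 0.13 without the array labelled SI organoids in SI medium 1. The largest interaction was that of Creb3l4, 1.76 (SE 0.85, adjusted p = 0.556), and the smallest adjusted p that of Sec24d, 1.49 (SE 0.39, adjusted p = 0.153).

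The medium was compared over both origins with origin as an additive term, and none of the 34 genes was called by limma in Sto against SI medium, where 0 of 18820 genes were called. At an unadjusted p under 0.05 there were 2, Trib3 and Derl3 (5.88%, against 9.65% of all genes), and the methods' t-test with the 2-fold minimum named 2 unadjusted and 0 after adjustment. Trib3 was at 7.25 in Sto organoids and 6.79 in SI organoids in Sto medium, and 5.70 and 5.69 in Sto organoids against 6.30, 5.67 and 5.65 in SI organoids in SI medium. Both arrays in Sto medium lay above all 5 in SI medium, with a difference of 1.21 (SE 0.25, adjusted p = 0.387). Derl3 was at 6.14 in Sto organoids and 5.97 in SI organoids in Sto medium, and 4.54 and 5.40 in Sto organoids against 4.99, 4.53 and 4.52 in SI organoids in SI medium. Here too both arrays in Sto medium were the highest, with a difference of 1.23 (SE 0.27, adjusted p = 0.387). Atf4, upstream of Trib3, was at 8.06 in Sto organoids and 7.89 in SI organoids in Sto medium, and 7.88 and 7.81 in Sto organoids against 7.87, 7.41 and 7.82 in SI organoids in SI medium, a difference of 0.20 (SE 0.17, adjusted p = 0.801). In these 3 genes the arrays in Sto medium lay above all those in SI medium, as in 7.38% of all genes, and none of the 34 lay below in the same way, as 3.99% of all genes did. Over the 34 genes 22 differences (64.7%) were above 0, against 50.8% of all genes and 64.5% of the 1882 genes of highest signal. The median of the 34 was 0.13, as was that of those 1882 genes. After quantile normalisation the median of the 34 was -0.01, so it had no settled direction.

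Sorted control SCs of both origins were last set against whole control organoids. Against organoids in SI medium Derl3 alone rose, 3.67-fold, by 1.88 (SE 0.20, adjusted p = 0.00112), where 2.51% of all genes were called higher and 1.47% lower. It was 1 of 3 genes, with Atf4 and Trib3, whose SC arrays all lay above the organoid arrays, as in 1.6% of all genes, and none lay below, as 0.994% of all genes did. Its 5 control SC arrays, at 7.27 and 7.77 for Sto and 6.13, 5.90 and 5.62 for SI, lay above all 5 organoid arrays in SI medium, of which the highest was 5.40. Without the array labelled SI organoids in SI medium 1, Creb3l4 was called as well, at 1.36 (adjusted p = 0.00568), beside 3.97% of all genes called higher. Trib3 passed the adjusted p below the 2-fold minimum, at 0.85 (SE 0.18, adjusted p = 0.0201), so 2 of the 34 passed it, beside 5.09% of all genes higher and 3.33% lower. The difference was above 0 for 29 of the 34 genes, against 48.7% of all genes and 55.1% of the 1882 genes of highest signal. Its median was 0.29 against -0.01 over all genes. Of 32 other ER chaperones and redox enzymes 5 were called higher, Txndc16, Fkbp7, Fkbp11, P4ha1 and P4ha2 (2.05-fold to 3.64-fold), and none lower. The integrated stress response gene Ppp1r15a rose 3.21-fold. Sort and medium change together here, and their parts cannot be told apart. Against organoids in Sto medium, which leaves 1 organoid array per origin, none of the 34 was called by limma (0.0319% of all genes were called higher and 0.0106% lower), 2 (5.88%, against 8.82% of all genes) were under an unadjusted p of 0.05, the methods' t-test gave 0, and 23 of 34 differences were above 0 with a median of 0.15. In this comparison 47.5% of all genes and 38.2% of the 1882 genes of highest signal had differences above 0. None of the 34 had all SC arrays above or all below the 2 organoid arrays, as 4.89% and 8.86% of all genes had. Derl3 was then at 0.65 (SE 0.26, adjusted p = 0.496). Immediate early genes moved with the sort, 9 of 15 called higher against SI medium and 4 of 15 against Sto medium, Fosb 53.9-fold and 74.6-fold, and of the integrated stress response genes Atf3 rose 9.60-fold and 9.07-fold. Their part in the ER values was not tested.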

How the data were processed

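The authors hybridised RNA of 14 samples, from sorted stem cells or whole organoids, each to its own array (Affymetrix Mouse Gene ST 1.1). The deposited values are log2 signals per probe set, made by the authors with Affymetrix Power Tools (RMA-sketch). Of 35556 probe sets, 21218 were assigned to 1 gene in the platform annotation, and the probe set of highest mean was kept for each of 18820 genes. Each of the 14 value columns carried the name of its sample. Groups were compared on the deposited log2 values with limma 3.58.1 (lmFit and eBayes, two-sided) in R 4.3.3, with the 3 stem cell groups fitted together and Benjamini-Hochberg adjustment over all 18820 genes. A call required an adjusted p under 0.05 and at least 2-fold. Alternatives were quantile normalisation, median centring, removal of dim genes, the mean of a gene's probe sets, a fit of only the groups compared, no fold minimum, a robust trend, the methods' t-test (two-sided, on the same arrays), the replicate number as a block, and each array left out. The t-test used for medium, for the difference between origin effects and for sorted SCs against organoids was that of an ordinary linear model, which the methods do not describe. The number of arrays limits the precision, and log2 differences were tested on simulated data first. Members and lists were chosen with earlier results of these data known. Values on every array are given, by rule, for Xbp1, Ern1, Ern2, Atf4, Atf6, Trib3, Hspa5, Hsp90b1 and every member called in any comparison, and other members by range, counts and extremes. Called genes of other lists are named in part, and not all of those called in organoids are given. Lists described beyond the 36 hold measured genes only. Promoter sequences were taken from RefSeq (GRCm38.p6) and searched with Python 3.11.15 and pandas 2.3.3, and figures were drawn with matplotlib 3.10.9.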

Additional observations from a re-analysis of the deposited data

How the results depend on the processing

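Counts are of the 34 ER genes called. For control Sto SCs against control SI SCs there were 7, and 0 by the methods' t-test after adjustment, 2 without both arrays exported differently, 2 with quantile normalisation as well, 5 with the replicate number as a block, and 1 to 6 when each array was left out. The 6 were left without either array labelled Cdx2null SI SCs, which enter the shared spread, and the gene lost was Ern2 both times. For Cdx2null SI SCs against control SI SCs there were 0, and 2 (Creb3l4 and Ern2) with median centring, with dim genes left out and with a robust trend, 4 by the methods' t-test unadjusted, and 1 (Sec24d) with the replicate block. Sto against SI organoids in SI medium gave 0, and 0 to 5 with an array left out, and 2 with quantile normalisation and without the array labelled SI organoids in SI medium 1. Sorted control SCs against organoids in SI medium gave 1, and 0 with dim genes left out, 2 with no fold minimum, 1 to 2 with an array left out, and 2 with quantile normalisation and without that same array. An ordinary linear-model t-test unadjusted gave 2 for medium and 2 for the difference between origin effects. For control Sto SCs, 0.946% of all genes were called higher without both arrays exported differently, and 1.02% with quantile normalisation as well. With the replicate block it was 1.59%, and 0.622% for Cdx2null SI SCs. With quantile normalisation and without the array labelled SI organoids in SI medium 1, it was 6.25% for origin in SI medium. In that setting it was 4.11% for sorted control SCs against SI medium. For the t-tests, and for most settings with 1 array left out, no share of all genes is given. The settings that combine quantile normalisation with arrays left out were chosen after seeing the data. Over 2428 alternative values of the 14 genes named with full values, 22 newly passed the call, 49 no longer did and 2357 stayed on their side of it. The sign turned in 94 of the 2428, none of them called in either setting and none over 0.31 log2 units in size as reported. Over the 34 genes, the count above 0 for Sto against SI organoids in SI medium was 30, and 25 after quantile normalisation and 20 without the arrays exported differently, and for medium it was 22, and 17 and 19. In the same order, 55.6%, 48.7% and 51.5% of all genes were above 0 for origin, and 50.8%, 59.0% and 47.8% for medium. Replicate numbers were not taken to pair the samples, since no source says that they do. The correlations of same-numbered deviations among sorted SCs were all positive (0.377, 0.0716, 0.273, 0.176 and 0.404). Whether equal numbers mark a shared batch was not tested. The block lost Ern2 and Pdia5 for control Sto SCs, gained Sec24d for Cdx2null SI SCs, and changed no other call count. Where the causes of these changes were not shown by the construction of the setting, the cause was not tested. With 1 to 3 arrays a group, and 1 Cdx2null and 1 SI organoid array whose Cdx2 signal differs from that of their replicates, single calls rest on single arrays.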
